A study of Mus musculus with 2 samples.

Results

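The enzymes described here remove peroxide and superoxide: the glutathione peroxidases Gpx1, Gpx2, Gpx3, Gpx4 and Gpx7, the superoxide dismutases Sod1, Sod2 and Sod3, and catalase (Cat). They were chosen by name, and all 9 were found among the 26440 genes of the expression tables, each by its RefSeq transcript accession. Livers of BALB/c mice were collected at day 11 after birth and their RNA was sequenced on an Illumina HiSeq2000. A single library was made from the liver of mice with a liver-specific SRSF2 deletion, labelled SRSF2-/- (SRSF2 KO), and a single library from wild-type liver (WT). SRSF2 belongs to the serine/arginine-rich proteins, which bind exons and help to choose splice sites. How the deletion was driven, which stretch of the gene it removes, and any pooling of animals are not stated in the labels. With 1 library per genotype there was no test and no replicate error. A value describes these 2 libraries, and each interval printed is a 95% interval of counting error only.

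Superoxide is made by electron leak in mitochondria and by oxidases. Superoxide dismutases turn it into hydrogen peroxide, Sod1 with copper and zinc in the cytosol, Sod2 with manganese in the mitochondrial matrix, and Sod3 outside the cell. Catalase splits hydrogen peroxide inside peroxisomes, which hepatocytes hold in large numbers, while glutathione peroxidases reduce peroxides at the expense of glutathione. Several glutathione peroxidases are selenoproteins, whose catalytic selenocysteine is encoded by TGA, a codon that otherwise ends translation.

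The codon that sets the selenium-dependent peroxidases apart is shown here with 18 bases of coding sequence on either side, from the GENCODE vM21 transcripts of build GRCm38, with the codon in capitals. It is annotated as selenocysteine in Gpx1, Gpx2, Gpx3 and Gpx4. In Gpx7 it is the codon that aligned with the Gpx1 selenocysteine codon, and it reads TGT, a cysteine codon. The transcript shown is the protein-coding transcript with the longest coding sequence, among those with the annotated codon in Gpx1 to Gpx4. Codon numbers hold for that transcript only.
Gpx1: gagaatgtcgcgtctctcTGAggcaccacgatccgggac
Gpx2: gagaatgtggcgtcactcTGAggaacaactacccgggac
Gpx3: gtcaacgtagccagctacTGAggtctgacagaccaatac
Gpx4: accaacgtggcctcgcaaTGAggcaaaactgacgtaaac
Gpx7: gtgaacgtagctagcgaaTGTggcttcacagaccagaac
The Gpx1 codon is codon 47 of the transcript Gpx1-201, in exon 1 of 2 on the plus strand (chr9:108339451-108339453). In Gpx2-201 it is codon 40, in exon 1 of 2 on the minus strand (chr12:76795256-76795258). In Gpx3-201 it is codon 73, in exon 2 of 5 (chr11:54907256-54907258, plus strand), and in Gpx4-201 it is codon 129, in exon 3 of 7 (chr10:80054737-80054739, plus strand). The Gpx7 cysteine codon is codon 56 of Gpx7-201, in exon 2 of 3 on the minus strand (chr4:108403430-108403432). In each of the 5 transcripts the codon lies before the last exon junction, by 105 bases in Gpx1, 102 in Gpx2, 240 in Gpx3, 342 in Gpx4 and 229 in Gpx7.

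Reads summed to 22111605 in the SRSF2 KO and 22407743 in the WT library. The genotype check, Srsf2, had 832 reads (11.8 FPKM) in the SRSF2 KO and 1998 reads (27.9 FPKM) in the WT library. Whether the remaining Srsf2 reads came from undeleted cells or from undeleted stretches of the gene cannot be told apart. FPKM are fragments scaled to transcript length and library size. Ratios of all genes were shifted upward: over the 12477 genes with at least 1 FPKM in either library, the median of log2((SRSF2 KO FPKM + 1) / (WT FPKM + 1)) was 0.55, and 84.5% of them had the higher value in the SRSF2 KO library. The 20 genes with the most reads, picked in each library separately, took 21.5% of the reads in the SRSF2 KO and 37.5% in the WT library. Log2 ratios are therefore given as deposited and again after subtracting this median (centring). The libraries also differed in genes of other cells and of the sex chromosomes. The 10 exocrine pancreas markers summed to 799.8 FPKM in the SRSF2 KO and 7.86 FPKM in the WT library, where Cpb1, Pnlip and Cel had 0 reads. The 10 skeletal muscle markers summed to 94.6 FPKM in the SRSF2 KO and 0.336 FPKM in the WT library, with 5 of them at 0 reads in WT. The X-inactivation RNA Xist had 6 reads in the SRSF2 KO and 13004 in the WT library, and 3 of 4 Y-linked genes had 0 reads in WT, so the genotypes cannot be told apart from sex.

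Among the 9 enzymes, transcripts of 3 selenium-dependent peroxidases and of the cytosolic dismutase were at least 2-fold higher in the SRSF2 KO liver. Gpx3 was 20.2-fold, Gpx4 5.90-fold, Gpx1 2.67-fold and Sod1 2.12-fold higher, as ratios of FPKM. The mitochondrial dismutase Sod2 and peroxisomal Cat were slightly lower, at 0.735 and 0.852 of the WT level. Of the 9 genes 8 had at least 1 FPKM in a library, and 4 of these 8 reached a 2-fold higher value and 0 a 2-fold lower one on the log2(FPKM + 1) scale. Over all 12477 genes tested the share called was 19.2% higher and 2.95% lower. After centring, 2 of the 8 were at least 2-fold higher, Gpx3 and Gpx4, and 0 lower, where 5.67% of all genes were higher and 6.66% lower. The median log2 ratio of the 8 enzymes was 0.88, or 0.33 after centring on all genes. Single ratios ran between -0.43 and 4.02. In RNA of whole tissue, a different number of cells of a type and a different amount of RNA per cell cannot be told apart.

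**Figure D1:**
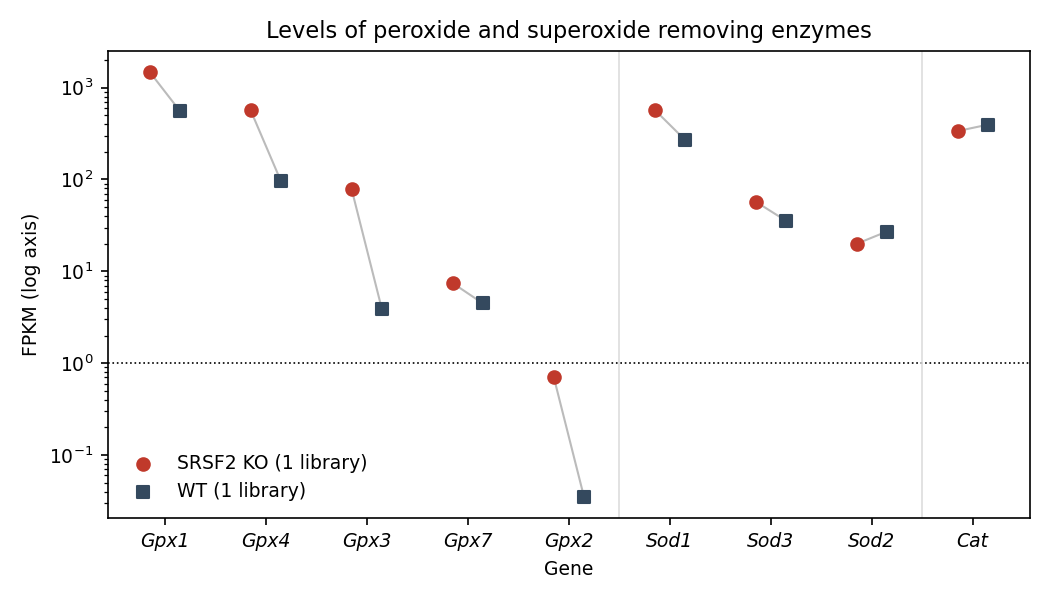
Level of each enzyme transcript in FPKM (vertical log axis) in the SRSF2 KO library (red circles) and the WT library (dark squares), 1 library each, with glutathione peroxidases on the left, dismutases in the middle and catalase on the right; the dotted line marks 1 FPKM. Gpx3 shows the widest gap among the genes above that line, at 78.0 FPKM in SRSF2 KO and 3.85 FPKM in WT, while Sod2 and Cat are lower in SRSF2 KO.

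Gpx1 encodes the abundant glutathione peroxidase of cytosol and mitochondria, which acts on hydrogen peroxide and soluble hydroperoxides. It had 40538 reads (1479.8 FPKM) in the SRSF2 KO and 15388 reads (555 FPKM) in the WT library. It was the most abundant of the 9 transcripts in both libraries, in 25th place among all genes in SRSF2 KO and 81st in WT. The SRSF2 KO level was 2.67-fold higher (2.62 to 2.72), a log2 ratio of 1.41, or 0.86 centred. Of the tested genes 7.43% had a higher log2 ratio.

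Gpx4 encodes the phospholipid hydroperoxide peroxidase, which reduces oxidised lipids within membranes and holds back the iron-dependent cell death called ferroptosis. Its transcript had 14725 reads (565 FPKM) in the SRSF2 KO and 2524 reads (95.6 FPKM) in the WT library. The difference was 5.90-fold (5.66 to 6.16), with a log2 ratio of 2.55, or 1.995 centred, and 1.47% of tested genes lay above it. Its difference was wider than that of Gpx1. The SRSF2 KO library held 0.381 Gpx4 per Gpx1 on the FPKM scale, the WT library 0.172. Such a ratio between a pair of genes within a library does not depend on how the library was scaled, and this one was 2.21-fold higher in SRSF2 KO (2.11 to 2.32). A pseudogene, Gpx4-ps2, is annotated in GENCODE vM21, and the labels do not say how reads shared with it were counted.

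Gpx3 encodes the peroxidase secreted into plasma, for which the kidney is the known main source. Its transcript had 3101 reads (78.0 FPKM) in the SRSF2 KO and 155 reads (3.85 FPKM) in the WT library, where it was a minor transcript. This was the widest difference among the 8 tested enzymes, 20.2-fold (17.2 to 23.9). Its log2 ratio was 4.02, or 3.47 centred, and 0.264% of tested genes had a higher one. Per Gpx1 transcript, Gpx3 was 7.59-fold more abundant in SRSF2 KO (6.46 to 8.93), at 0.0527 Gpx3 per Gpx1 in SRSF2 KO and 0.00694 in WT.

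Gpx7 encodes a peroxidase of the endoplasmic reticulum that carries cysteine in place of selenocysteine, as its codon above shows. It had 237 reads (7.45 FPKM) in the SRSF2 KO and 144 reads (4.47 FPKM) in the WT library. The ratio of 1.67 (1.35 to 2.06) gave a log2 ratio of 0.63, which was 0.07 from the median of all genes. Gpx2, the peroxidase known from the lining of the gut, was close to undetected. It had 20 reads (0.715 FPKM) in the SRSF2 KO and 1 read (0.0353 FPKM) in the WT library, and it was left out of the counts because neither value reached 1 FPKM. Its ratio of 20.2 carried a wide interval, 3.24 to 839, because it rests on 1 WT read. When genes were called instead by a read ratio interval wholly beyond 2-fold, without a pseudocount or filter, Gpx2 joined the other 4 and 5 of the 9 enzymes were higher and 0 lower, where 17.4% of all genes with reads were higher and 1.99% lower. Gpx2 overlaps Fntb on the opposite strand in GENCODE vM21 without shared exon bases, and the labels do not say whether strand was used in counting. Fntb had 206 reads in the SRSF2 KO and 152 in the WT library. A pseudogene, Gpx2-ps1, is also annotated.

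Summed over the 5 peroxidase genes, the SRSF2 KO library held 2131 FPKM and the WT library 659 FPKM, a ratio of 3.23. All 5 had the higher value in SRSF2 KO as deposited, as did 84.5% of all tested genes. Their centred log2 ratios were also above 0, but only 0.07 for Gpx7 and 0.17 for Gpx2. The Gpx2 value rests on 1 WT read, and Gpx2 was not among the tested genes. The makeup of this sum differed too. Gpx1 made up 69.5% of it in SRSF2 KO and 84.2% in WT, while Gpx4 made up 26.5% in SRSF2 KO and 14.5% in WT. The Gpx3 share was 3.66% in SRSF2 KO and 0.584% in WT, and Gpx7 was below 1% in both, at 0.350% in SRSF2 KO and 0.678% in WT.

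**Figure D2:**
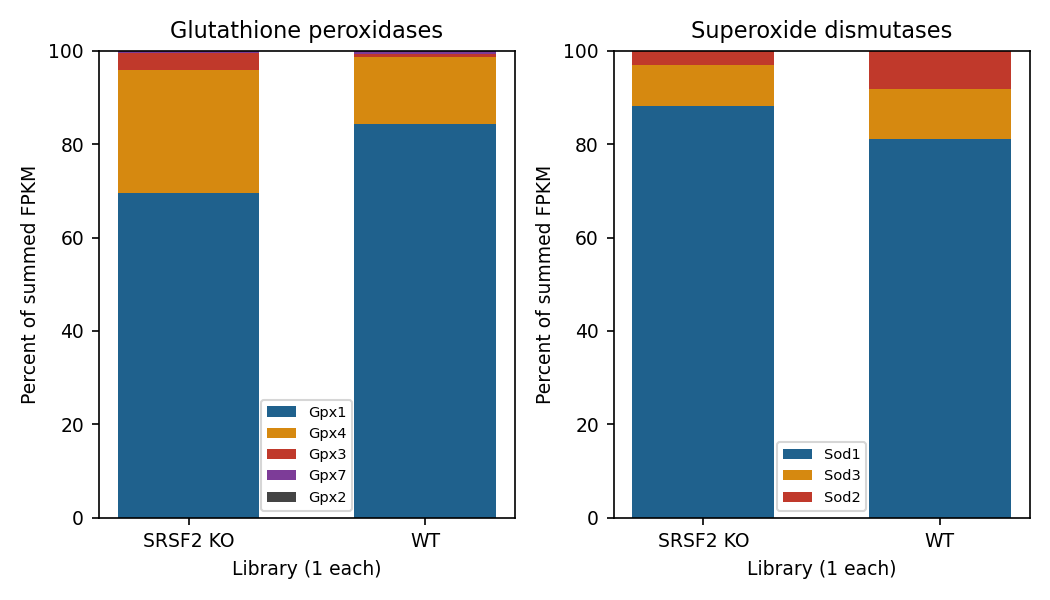
Percent of the summed FPKM of the glutathione peroxidase transcripts (left) and of the superoxide dismutase transcripts (right) taken by each gene in the SRSF2 KO and WT libraries, 1 library per bar. The Gpx4 segment is wider in SRSF2 KO (26.5% against 14.5% in WT) and the Sod2 segment narrower (3.06% against 8.14% in WT).

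The 3 dismutases did not share a direction. Sod1 had 9753 reads (574 FPKM) in the SRSF2 KO and 4651 reads (271 FPKM) in the WT library. It was 2.12-fold higher in SRSF2 KO (2.05 to 2.20), with a log2 ratio of 1.08, just past the 2-fold rule. Centred, its log2 ratio was 0.53, below 2-fold, and 15.4% of tested genes had a higher ratio. Sod1 overlaps Scaf4 on the opposite strand in GENCODE vM21, without shared exon bases. Scaf4 had 825 reads in the SRSF2 KO and 430 in the WT library.

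Sod2 had 1998 reads (19.9 FPKM) in the SRSF2 KO and 2751 reads (27.1 FPKM) in the WT library. The SRSF2 KO level was 0.735 of the WT level (0.693 to 0.779), a log2 ratio of -0.43, or -0.98 centred. It was the lowest ratio of the 8 enzymes, and 6.96% of tested genes lay below it. Sod3, whose product binds to matrix outside cells, had 3080 reads (57.5 FPKM) in the SRSF2 KO and 1931 reads (35.6 FPKM) in the WT library. It was 1.61-fold higher (1.52 to 1.71), at a log2 ratio of 0.68, or 0.12 centred. Between the cytosolic and mitochondrial enzymes the balance differed regardless of scaling. The SRSF2 KO library held 28.8 Sod1 per Sod2 on the FPKM scale and the WT library 9.98, a 2.89-fold difference (2.70 to 3.09). Of the summed dismutase FPKM, Sod2 took 3.06% in SRSF2 KO and 8.14% in WT, and Sod1 88.1% in SRSF2 KO and 81.2% in WT. These shares depend on the transcript lengths used. Of the summed dismutase reads, Sod2 took 13.5% in SRSF2 KO and 29.5% in WT.

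Cat had 23224 reads (336 FPKM) in the SRSF2 KO and 27593 reads (395 FPKM) in the WT library. Its SRSF2 KO level was 0.852 of the WT level (0.837 to 0.867), with a log2 ratio of -0.23, or -0.78 centred. Lower ratios were found for 10.1% of tested genes. Gpx1, Sod1 and Gpx4 were above Cat in the SRSF2 KO liver, and Gpx1 alone of the 9 enzymes was in the WT liver. The SRSF2 KO library held 4.40 Gpx1 per Cat and the WT library 1.41, a 3.13-fold difference (3.05 to 3.21). Gpx4 was above Cat in SRSF2 KO, at 1.68 Gpx4 per Cat, and below it in WT, at 0.242.

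**Figure D3:**
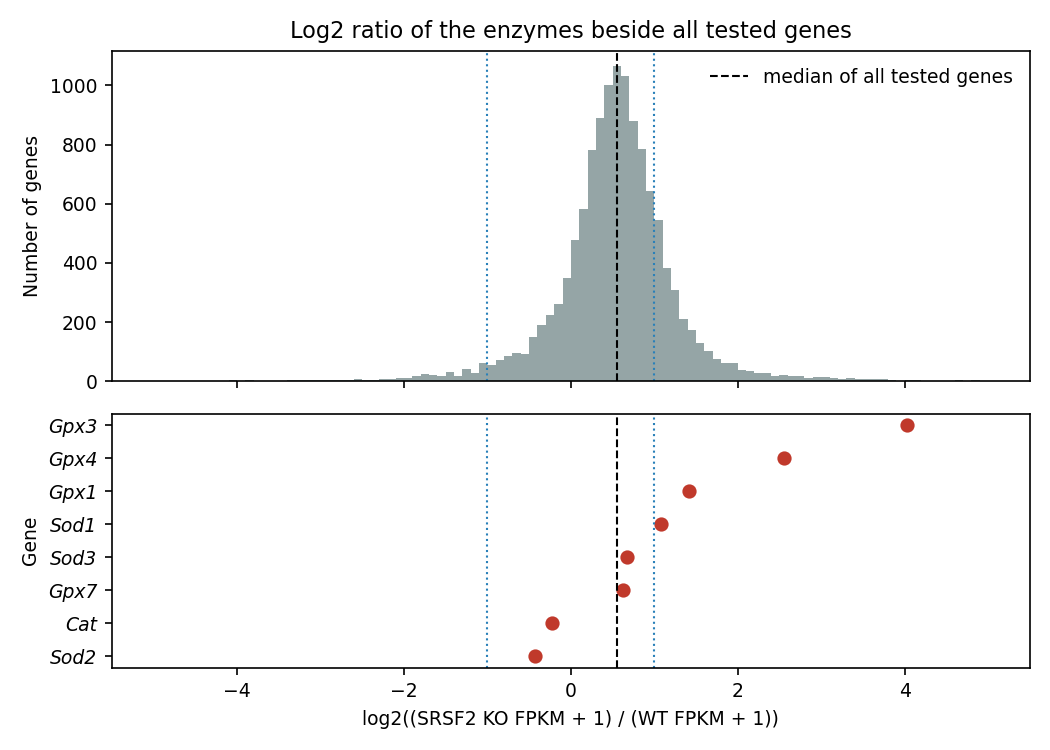
Top, number of genes (vertical axis) by log2((SRSF2 KO FPKM + 1) / (WT FPKM + 1)) for the 12477 tested genes, with values beyond 5 in either direction placed in the end bins; bottom, the same ratio for the 8 tested enzymes, 1 point per gene. The dashed line is the median of all genes (0.55) and the dotted lines are 2-fold; Gpx3, Gpx4, Gpx1 and Sod1 lie right of the upper 2-fold line, and Cat and Sod2 lie left of the median.

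The order of levels in the SRSF2 KO library, from high to low, was Gpx1, Sod1, Gpx4, Cat, Gpx3, Sod3, Sod2, Gpx7 and Gpx2. Sod1 and Gpx4 were not separated there beyond counting error, with intervals of 563 to 586 FPKM and 555 to 574 FPKM. In the WT library the order was Gpx1, Cat, Sod1, Gpx4, Sod3, Sod2, Gpx7, Gpx3 and Gpx2. Gpx7 and Gpx3 overlapped in it, at 3.77 to 5.26 FPKM and 3.27 to 4.51 FPKM. The spread between animals is unknown.

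The genes whose values lay nearest to the 3 enzymes with the widest differences were found by the distance between log2(FPKM + 1) values over the 2 libraries. The search left out predicted and clone-named genes and accessions without a name. Nearest to Gpx3 was Fdps, with 78.2 FPKM in the SRSF2 KO and 3.91 FPKM in the WT library, at a distance of 0.018, followed by Gpt2 (0.400) and Ugdh (0.400). Nearest to Gpx4 were Sqstm1 (distance 0.339), Gstm1 (0.382) and Hsd17b13 (0.449). Nearest to Gpx1 were Clu (0.255), Ass1 (0.269) and Fth1 (0.281). Among the genes searched, Fdps was the only gene within 0.1 of Gpx3, and none came as near to Gpx4 or Gpx1.

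The list of other selenoproteins, which leaves out the thioredoxin reductases, held genes on both sides. Of 17 listed, 14 were tested, and 2 were past 2-fold upward and 1 downward (0 and 1 after centring), beside 19.2% upward and 2.95% downward over all genes, at a median log2 of 0.26, or -0.29 centred. Selenop, the plasma protein that carries selenium out of the liver, was the most abundant and nearly level, at 3466 FPKM in the SRSF2 KO and 3381 FPKM in the WT library. Dio1, the deiodinase that activates thyroid hormone, had 7.18 FPKM in SRSF2 KO and 69.2 FPKM in WT, a log2 ratio of -3.10. The 2 genes past 2-fold upward were Selenom and Selenon, at log2 ratios of 1.37 and 1.04, or 0.81 and 0.49 centred. Selenom had 11.7 FPKM in SRSF2 KO and 3.93 FPKM in WT, and Selenon had 6.98 FPKM in SRSF2 KO and 2.87 FPKM in WT. Per Selenop transcript, Gpx1 was 2.60-fold (2.55 to 2.65) and Gpx4 5.76-fold (5.52 to 6.01) more abundant in SRSF2 KO.

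The list of selenocysteine synthesis and insertion, which also holds Scly for selenium recovery, had 8 tested genes. As deposited 0 were past 2-fold upward and 0 downward, beside 19.2% and 2.95% over all genes. After centring 0 were upward and 1, Scly, downward, beside 5.67% and 6.66%. The median log2 ratio of the 8 genes was 0.50, or -0.05 centred. Pstk, also on the list, was not matched and is not analysed here. Sephs2, which makes the selenium donor, had 184 FPKM in the SRSF2 KO and 199.7 FPKM in the WT library. Trnau1ap, which binds the selenocysteine transfer RNA, had 20.8 FPKM in SRSF2 KO and 12.01 FPKM in WT. Eefsec, the elongation factor for selenocysteine, had 12.7 FPKM in SRSF2 KO and 6.43 FPKM in WT. Scly, which recovers selenium from selenocysteine, had 12.4 FPKM in SRSF2 KO and 23.9 FPKM in WT.

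The peroxiredoxins, thioredoxins, glutaredoxins and remaining peroxidases form the parallel route for peroxide removal. Past 2-fold were 5 of 17 tested genes upward and 0 downward, beside 19.2% and 2.95% over all genes. The median log2 ratio of the 17 genes was 0.64, or 0.09 centred. After centring 1 was higher, Srxn1, and 1 lower, Prdx4. The highest ratio belonged to Srxn1, which restores over-oxidised peroxiredoxins, at 74.4 FPKM in SRSF2 KO and 5.84 FPKM in WT, or 12.7-fold higher (11.5 to 14.1). Txnrd1, the cytosolic thioredoxin reductase, had 31.8 FPKM in SRSF2 KO and 12.7 FPKM in WT. Glrx3, a glutaredoxin that handles iron-sulfur clusters, had 62.0 FPKM in SRSF2 KO and 25.4 FPKM in WT. The other genes past 2-fold were those of mitochondrial Prdx3, at 139 FPKM in SRSF2 KO and 67.9 FPKM in WT, and of Prdx5, at 239.5 FPKM in SRSF2 KO and 117 FPKM in WT. Prdx4, of the endoplasmic reticulum, had 46.5 FPKM in SRSF2 KO and 91.6 FPKM in WT. Prdx3, Prdx5 and Prdx4 were named after their values were seen. Prdx1, the most abundant peroxiredoxin, had 570.2 FPKM in SRSF2 KO and 405 FPKM in WT, a ratio of 1.41.

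Glutathione supply and recycling had 7 tested genes, of which 1 was past 2-fold upward and 0 downward (0 and 0 after centring). Over all tested genes 19.2% were upward and 2.95% downward. The median log2 ratio of the 7 genes was 0.67, or 0.12 centred. The higher gene was Gsr, the reductase that regenerates the glutathione used by the peroxidases, with 24.8 FPKM in SRSF2 KO and 8.39 FPKM in WT. It was 2.96-fold higher (2.69 to 3.25). Gss, the glutathione synthetase, had 43.2 FPKM in SRSF2 KO and 25.04 FPKM in WT. G6pdx, a source of NADPH, had 8.06 FPKM in SRSF2 KO and 4.25 FPKM in WT, and Idh1, another, had 57.5 FPKM in SRSF2 KO and 52.5 FPKM in WT. Pgd and Nnt, also on the list, had no matched accession and are not analysed here.

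Genes of copper and manganese delivery in general, not only to the dismutases, were mixed. Past 2-fold were 2 of 10 tested genes upward and 0 downward (0 and 3 after centring), beside 19.2% and 2.95% over all genes. After centring these shares were 5.67% and 6.66%. The median log2 ratio of the list was 0.04, or -0.51 centred. The higher genes were the copper chaperones Atox1, at 436 FPKM in SRSF2 KO and 199 FPKM in WT, and Cox17, at 35.1 FPKM in SRSF2 KO and 15.4 FPKM in WT. The 3 genes lower after centring, named after their values were seen, were Slc31a1, Slc39a14 and Slc39a8. Slc31a1 had 32.4 FPKM in SRSF2 KO and 51.6 FPKM in WT, and Slc39a14 had 32.2 FPKM in SRSF2 KO and 52.2 FPKM in WT. Slc39a8 had 7.03 FPKM in SRSF2 KO and 10.6 FPKM in WT. Atp7a, a copper exporter, had 3.32 FPKM in SRSF2 KO and 1.52 FPKM in WT. Ccs, the chaperone that loads copper onto the Sod1 protein, was chosen after its values were seen. It had 51.8 FPKM in SRSF2 KO and 45.8 FPKM in WT, a log2 ratio of 0.18.

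Peroxide-producing oxidases, not all of them peroxisomal, and peroxisome genes varied gene by gene. Of 12 tested peroxide-producing oxidases 1 was past 2-fold upward and 3 downward (1 and 3 after centring). Over all tested genes 19.2% were upward and 2.95% downward (5.67% and 6.66% after centring). The median log2 ratio of these oxidases was 0.26, or -0.30 centred. The hydroxyacid oxidases Hao1 and Hao2 were lower: Hao1 had 16.3 FPKM in SRSF2 KO and 89.3 FPKM in WT, and Hao2 had 0.897 FPKM in SRSF2 KO and 45.6 FPKM in WT. The third, named after its values were seen, was Ddo, the D-aspartate oxidase gene, at 0.521 FPKM in SRSF2 KO and 3.76 FPKM in WT. Uox, urate oxidase, had 435 FPKM in SRSF2 KO and 551 FPKM in WT. The cytosolic Aox1, aldehyde oxidase, had 12.4 FPKM in SRSF2 KO and 0.662 FPKM in WT. Among 14 tested genes of peroxisomal import and membrane 1 was past 2-fold upward and 1 downward (0 and 3 after centring), at a median log2 of 0.12, or -0.44 centred. These were Pex19, which carries membrane proteins to peroxisomes, at 45.5 FPKM in SRSF2 KO and 22.1 FPKM in WT, and the membrane channel gene Pxmp2, at 24.4 FPKM in SRSF2 KO and 89.7 FPKM in WT. Pex3, which anchors Pex19 at the membrane, had 2.70 FPKM in SRSF2 KO and 5.24 FPKM in WT.

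**Figure D4:**
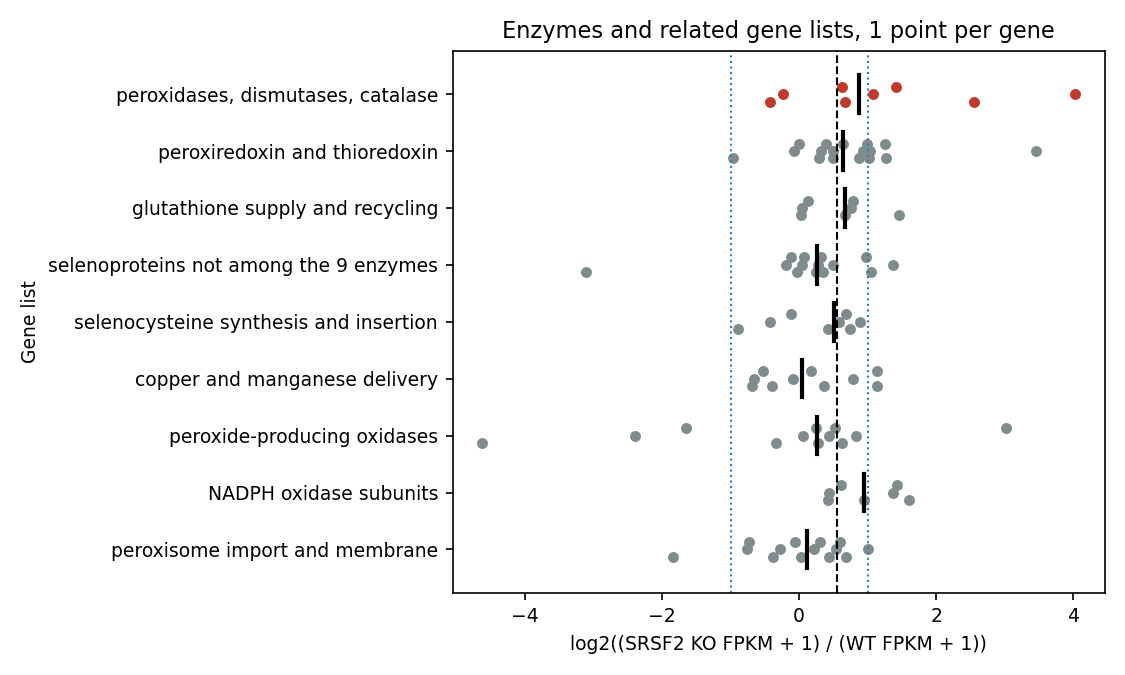
The log2((SRSF2 KO FPKM + 1) / (WT FPKM + 1)) (horizontal axis) of each tested gene in the 9 enzymes (red, 8 tested) and in 8 related lists (grey), with a black bar at each list's median; the dashed line is the median of all genes and the dotted lines are 2-fold. The 8 enzymes run between -0.43 and 4.02. The 8 tested genes of the selenocysteine synthesis and insertion list, which include Scly, lie within 2-fold of level before centring.

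Markers of the cell types of the liver, and of intestinal epithelium, also differed between the libraries. Among the lists given in this paragraph, the counts past 2-fold moved with centring in all but the endothelial and intestinal ones. Of all tested genes 19.2% were higher and 2.95% lower as deposited, and 5.67% higher and 6.66% lower after centring. Hepatocyte markers, all 10 detected, summed to 54538 FPKM in the SRSF2 KO and 106108 FPKM in the WT library, with 4 of 10 past 2-fold downward and 0 upward (7 and 0 after centring). Macrophage markers summed to 977 FPKM in SRSF2 KO and 386 FPKM in WT, with 5 of 9 tested higher and 0 lower (1 and 0 after centring). Stellate cell and fibroblast markers summed to 503 FPKM in SRSF2 KO and 188 FPKM in WT, with 6 of 10 higher and 0 lower (2 and 0 after centring), and bile duct markers to 118 FPKM in SRSF2 KO and 44.0 FPKM in WT, with 5 of 8 higher and 0 lower (3 and 0 after centring). No marker in these 4 lists was at 0 reads in either library. Red cell markers summed to 445 FPKM in SRSF2 KO and 778 FPKM in WT. Of these, 0 of 6 were past 2-fold as deposited and 3 of 6 lower after centring. Hbb-b1 and Hbb-b2 had 0 reads in both libraries, although Hba-a1 had 3287 reads in SRSF2 KO and 5915 in WT. The red cell sum therefore holds no beta globin, and the reason was not tested. Neutrophil markers summed to 122 FPKM in SRSF2 KO and 223 FPKM in WT, with 3 of 9 lower and 0 higher (7 and 0 after centring), and endothelial markers to 208 FPKM in SRSF2 KO and 169 FPKM in WT, with 0 of 10 past 2-fold as deposited or centred. Intestinal epithelium markers summed to 57.1 FPKM in SRSF2 KO and 23.8 FPKM in WT, with 3 of 6 higher and 0 lower (3 and 0 after centring) and Cdx2 at 0 reads in both libraries. The part of these cells, and of pancreatic and muscle RNA, in the values of the 9 enzymes was not tested.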

How the data were processed

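The submitters' processing notes name Bowtie 0.12.2 and build mm9. The counting program, annotation, strand and handling of reads with several matches are not stated there. Per the file headers, the authors deposited a raw read count and an FPKM value for each RefSeq accession. Names came from a RefSeq table of assembly GRCm38.p6 and from GENCODE, which named 23419 of 26449 accessions. Each of the 9 enzymes had 1 accession. Reads and FPKM were summed per gene. A log2 ratio with a pseudocount of 1, which understates the change of low genes, was computed for genes with at least 1 FPKM in either library and called at 2-fold. Folds are ratios of FPKM, each with a 95% Clopper-Pearson (exact) interval from the reads, multiplied by 1.012, the median difference between the libraries in FPKM per read. Intervals of single levels are exact Poisson intervals, and those of ratios between a pair of genes are normal approximations on the log odds ratio of reads. All cover counting error only, since there was 1 library per genotype. Amplified reads are not independent molecules, so even this error may be understated.

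The enzymes and lists were chosen with earlier results of these data known. Named genes were the 9 enzymes, Srsf2, the 3 largest absolute log2 ratios and the most abundant gene of each related list, and the 3 genes nearest to each of the 3 enzymes with the widest differences. Marker lists are given as sums and counts. The counts of the NADPH oxidase list are not reported here. The computation was tested on simulated data. Software was matplotlib 3.10.9, scipy 1.17.1, pandas 2.3.3 and numpy 2.4.6 in Python 3.11.15.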

Additional observations from a re-analysis of the deposited data

How the results depend on the processing

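Gpx3 and Gpx4 were past 2-fold under every scaling and pseudocount tried on the log2(FPKM + pseudocount) scale, with log2 ratios of 3.23 to 4.30 for Gpx3 and 1.995 to 2.57 for Gpx4. Gpx1 was under 2-fold after centring (0.86), and Sod1 after centring (0.53) and after rescaling without the 20 most abundant genes (0.75). Those 20 genes were the most abundant by mean FPKM over both libraries. No enzyme changed sign, but a pseudocount cannot turn a sign, nor can the choice of accession where each enzyme had 1. Cat and Sod2 were below 0 in all 6 alternatives each. Centring and rescaling without the 20 most abundant genes moved both further down, so these settings could not have raised them above 0. Centring left 2 enzymes at least 2-fold higher and gave 708 genes higher and 831 lower over the whole table, with an enzyme median of 0.33. Rescaling without the 20 most abundant genes gave 1297 genes higher and 562 lower and an enzyme median of 0.55, and no filter a median of 0.73. A pseudocount of 0.1 gave 3797 genes higher, and a pseudocount of 5 gave 786 higher and 232 lower. The 1.5-fold rule gave 5914 genes higher and 687 lower, and the 4-fold rule 2 enzymes and 344 genes higher and 94 genes lower. By reads in place of FPKM, Gpx4 made up 25.1% of the peroxidases in SRSF2 KO and 13.9% in WT, and Sod1 65.8% of the dismutases in SRSF2 KO and 49.8% in WT. Calling by the read ratio interval, an alternative chosen after seeing the data, added Gpx2 for 5 enzymes higher. No paired analysis was possible because there was 1 library per genotype. Depth limited Gpx2, at 1 read in WT.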
